A study of Mus musculus with 6 samples.

Results

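Erythropoietin and KIT ligand are the growth factors that carry red cell precursors through their development, and 10 genes of the signalling chain behind them are described here. They are Epor and Kit, which encode the receptors, Jak2, the kinase bound to the erythropoietin receptor, Stat5a and Stat5b, the transcription factors that this kinase activates, Cish, Socs1, Socs2 and Socs3, which encode inhibitors that STAT factors switch on and that then dampen the receptor, and Pim1, a kinase gene that is a target of STAT5. The rule names the genes and uses no threshold on their values, and they were taken from 48709 genes in the count table. All 10 were found by symbol, and all 10 were among the 12722 genes with enough counts to be tested.

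The RNA came from mouse G1E-ER4 cells, which stand for red cell precursors and trace back to embryonic stem cells. GATA1, the main transcription factor of red cell development, is present in them as a hybrid with the hormone-binding part of the estrogen receptor, which lets tamoxifen send it to the nucleus and start maturation. The promoter that drives this hybrid is not given in the sources used here, and neither is whether the line was 1 clone. The CTRL group had 3 libraries from cells given a peptide of alanines joined to the Tat sequence, and the CHD4-APR group had 3 libraries from cells given a Tat peptide that copies an aggregation-prone region (APR) of CHD4, a chromatin remodeler of the NuRD and ChAHP complexes. Both groups received 10 μM of peptide, then tamoxifen 2 h later for another 28 h, with the harvest at 30 h. For tamoxifen, the culture methods give 100 nM whereas the RNA-Seq methods give 100 μM. Both groups also grew with 2 U/mL of mouse erythropoietin and with medium conditioned by cells that make KIT ligand, so the medium of both groups held both ligands. The comparison asks how the expression of these genes differed with the CHD4-APR peptide while GATA1 was active. Nothing in the labels says that the libraries came from separate cultures, so the p-values measure the spread between libraries, which may be technical.

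The total counts lay between 41687482 and 49784177 in CTRL and between 41945739 and 46888804 in CHD4-APR. The erythroid identity of the cells was checked with 9 markers, all of which were tested. The summed level of these markers was 68390 to 74000 CPM (the counts-per-million scale) in CTRL and 57597 to 61633 CPM in CHD4-APR, with 1 of the 9 higher (Epb42) and 5 lower (Klf1 and 4 hemoglobin genes) in the latter. All 4 embryonic stem cell markers were at 0 counts. Summed mast cell or basophil markers reached no more than 0.821 CPM. Of 6 megakaryocyte markers, Gp1bb and Ppbp were at 0 and the sum was 47.6 to 50.2 CPM in CTRL and 41.2 to 46.8 CPM in CHD4-APR. Of 8 myeloid markers, Mpo and Ctsg were at 0 and the sum was 178 to 206 CPM in CTRL and 162 to 163 CPM in CHD4-APR, nearly all of it from Spi1, which erythroid progenitors also express. In RNA from whole cultures, fewer cells of a type and less RNA per cell cannot be told apart, and the part of these marker differences in the results was not tested.

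Erythropoietin binds a preformed dimer of its receptor and brings together the JAK2 molecules bound inside the cell. JAK2 then phosphorylates the receptor tail and STAT5A and STAT5B, which enter the nucleus as dimers and switch on survival genes as well as their own inhibitors of the SOCS family. KIT is a receptor tyrosine kinase that needs no JAK partner of its own, works mainly through the RAS and PI3 kinase arms, and is known to be shut down by GATA1 as erythroid cells mature.

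Promoter sequences from RefSeq (build GRCm38.p6, 250 bases before to 50 after each start site) were searched on both strands for the letters that the factors of this chain are known to bind. STAT5 dimers bind TTCNNNGAA, where N is any base, GATA1 binds AGATAA and AGATAG as well as the same letters with a leading T (TGATAA and also TGATAG), and GGGCGG is the GC box of SP and KLF factors. Entries were found for 9 of the 10 genes, with 13 promoters among them. Socs2 had no entry. The STAT5 letters were in the promoters of Cish and Socs3 and in 8.3% of all 32851 promoters. The Cish promoter held 2 copies, which begin at positions 1 and 12, counted from the start site as 1, inside an annotated exon, and the Socs3 copy began 154 bases before the start site. The GATA letters were in the Epor promoter, 54 bases before the start site, and in 29.8% of all promoters. No match of these motifs overlapped a match of another. The stretches with the STAT5 or GATA letters are shown because they are the textbook switches between receptor, STAT5 and inhibitor, with the motif in capitals and each read 5′ to 3′ on the strand of its gene.
Cish, chr9:107296654-107296683, plus strand: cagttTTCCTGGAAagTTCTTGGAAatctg
Socs3, chr11:117969502-117969531, minus strand: agaaaccagccTTCTTAGAAgggagggggg
Epor, chr9:21963613-21963642, minus strand: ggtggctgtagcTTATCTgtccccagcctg

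The GC box was in promoters of all 9 genes with an entry (10 of 13 promoters), against 35.7% of all promoters. The sequences upstream of Jak2 and Stat5b are shown because these were the genes that passed the test below, with GGGCGG or its reverse complement CCGCCC in capitals. The Stat5b stretch ends where an annotated exon begins, so its GC boxes at 118 and 31 bases before the start site are not shown. A match describes letters in a window and shows no binding in these cells.
Jak2, chr19:29251553-29251802, plus strand: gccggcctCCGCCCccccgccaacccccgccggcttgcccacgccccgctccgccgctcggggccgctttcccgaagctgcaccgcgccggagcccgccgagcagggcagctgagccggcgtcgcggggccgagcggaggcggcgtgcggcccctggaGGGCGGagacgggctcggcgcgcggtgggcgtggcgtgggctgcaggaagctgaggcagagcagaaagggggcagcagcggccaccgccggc
Stat5b, chr11:100850725-100850831, minus strand: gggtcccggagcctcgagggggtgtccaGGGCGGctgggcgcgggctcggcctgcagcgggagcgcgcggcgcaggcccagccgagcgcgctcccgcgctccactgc

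In the CTRL libraries the 10 genes spanned a wide range of levels. To compare genes with each other, CPM were divided by the exonic length in kilobases, counted over all annotated exons of a gene. The order below therefore depends on the annotation as well as on the counts. Pim1 was the highest at 207 ± 2.58 CPM per kilobase (SD, n = 3), above 97.9% of all genes tested. Epor followed at 105 ± 7.05 CPM per kilobase and Cish at 74.3 ± 1.52 CPM per kilobase. Thus the erythropoietin receptor and 2 of the genes that STAT5 activates made up the top of the order. The order of Epor and Cish rests on their annotated lengths of 1989 and 6419 bases. Without division by length, Cish, at a mean of 477 CPM, stood above Epor, at 208 CPM.

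Jak2 stood at 20.1 ± 1.05 CPM per kilobase and Stat5b at 18.9 ± 0.106 CPM per kilobase, and these neighbours were separated only narrowly. The lowest Jak2 library reached 18.99 CPM per kilobase and the highest Stat5b library 18.98 CPM per kilobase. Below them came Socs3 at 6.93, Stat5a at 3.02, Socs2 at 2.30 and Socs1 at 1.52 CPM per kilobase. Kit was the lowest at 0.305 ± 0.0317 CPM per kilobase, above 10.4% of the genes tested. No neighbours in this order overlapped between their CTRL libraries. Stat5b therefore exceeded its relative Stat5a in every CTRL library, and Epor exceeded Kit. As mean CPM, without division by length, Stat5b (104) stood above Jak2 (101), and Socs2 (21.9) above Stat5a (21.5) and Socs3 (20.0).

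**Figure D1:**
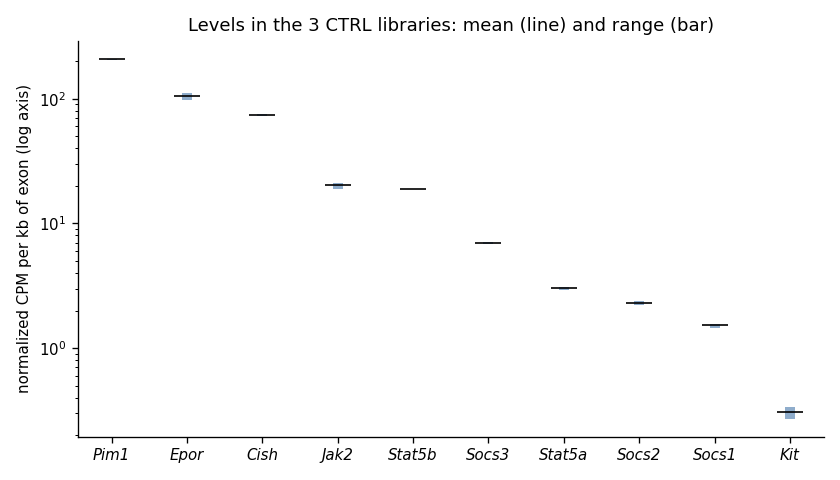
Level of the 10 genes in the 3 CTRL libraries, as normalized CPM per kilobase of exon on a log axis, ordered from the highest to the lowest mean. Lines are means and bars span the lowest to the highest library. Pim1, Epor and Cish lie at 74.3 CPM per kilobase or above and Kit at 0.305.

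Between the groups, only small differences were measured in the 10 genes. Jak2 and Stat5b rose with the CHD4-APR peptide, to 1.18-fold and 1.16-fold, of which Stat5b but not Jak2 also passed after a correction for length and GC content. The receptors, Stat5a, the 4 inhibitors and Pim1 did not pass the test, which was edgeR's quasi-likelihood test with p-values adjusted over all 12722 genes by the Benjamini-Hochberg method (FDR) and a threshold of 0.05. Thus 2 of 10 genes (20%) passed, both higher, against a background of 38.3% of all genes tested, of which 20.4% were higher and 17.8% lower. No gene of the 10 passed with a change of 1.5-fold, which 4.23% of all genes did. The median log2 fold change of the 10 genes was 0.050 and that of all genes -0.01, in each case for CHD4-APR over CTRL. The libraries of the groups did not overlap for 5 of the 10 genes, of which Jak2, Stat5a, Stat5b and Pim1 were higher and Socs3 was lower, against 49.9% of all genes (25.0% higher and 25.0% lower).

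**Figure D2:**
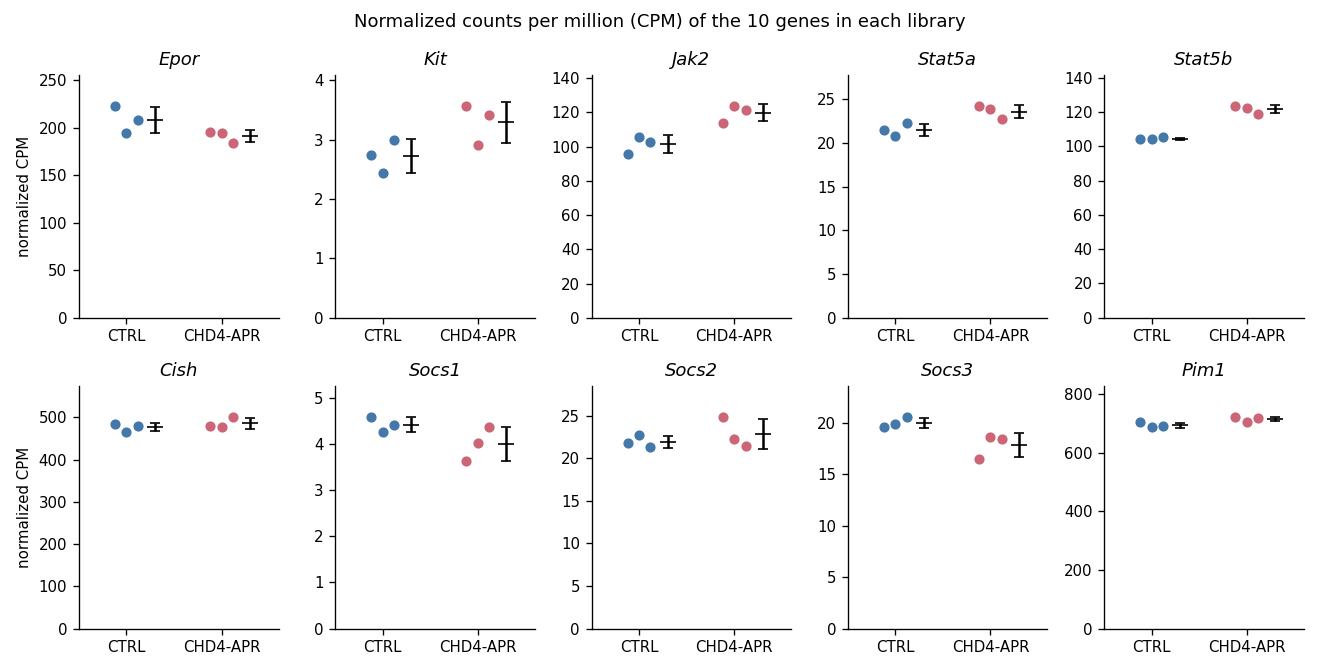
Normalized CPM of the 10 genes in each of the 3 CTRL (blue) and 3 CHD4-APR (red) libraries, with the mean and SD of each group beside the points and each axis starting at 0. The CHD4-APR points of Jak2 (114 to 123 CPM) and Stat5b (119 to 123 CPM) lie above all CTRL points, while those of Cish and Socs2 overlap with the CTRL range.

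Epor (ENSMUSG00000006235, chromosome 9 from 21958897 to 21963506 in GRCm38) encodes the receptor for erythropoietin. Its normalized CPM, on TMM-scaled library sizes, were 222, 194 and 208 in CTRL replicates 1 to 3 and 196, 194 and 184 in CHD4-APR replicates 1 to 3. CTRL replicate 1 was the highest, and CTRL replicate 2 lay among the CHD4-APR libraries, so the groups overlapped. The log2 fold change was -0.12 (SE 0.050, 95% confidence interval -0.23 to -0.015) with an FDR of 0.067. Without CTRL replicate 2, edgeR gave a log2 fold change of -0.17 with an FDR of 0.011. Without CTRL replicate 1 it was -0.073 (FDR 0.22) and without CHD4-APR replicate 3 it was -0.089 (FDR 0.28). Epor also passed with all libraries under upper quartile scaling (FDR 0.038), so its side of the threshold depended on both the libraries and the scaling.

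Kit (ENSMUSG00000005672, chromosome 5 from 75574916 to 75656722) encodes the receptor for KIT ligand. It had 116, 120 and 124 counts in CTRL and 159, 124 and 161 counts in CHD4-APR, the fewest of the 10 genes in every library. In normalized CPM these were 2.74, 2.43 and 3.00 in CTRL and 3.56, 2.90 and 3.41 in CHD4-APR. CHD4-APR replicate 2 lay below CTRL replicate 3, and the other CHD4-APR libraries lay above all CTRL libraries. This gave a log2 fold change of 0.28 (SE 0.14) with an FDR of 0.13. Its interval, from -0.021 to 0.58, was the widest of the 10, so that a difference of up to 1.49-fold was within the error at this depth.

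Jak2 (ENSMUSG00000024789, chromosome 19 from 29251828 to 29313080) encodes the kinase through which the erythropoietin receptor signals. The normalized CPM were 95.5, 106 and 103 in CTRL and 114, 123 and 122 in CHD4-APR. All 3 CHD4-APR libraries were higher than every CTRL library. Jak2 rose by a log2 fold change of 0.24 (SE 0.050, edgeR FDR 0.0013), or 1.18-fold with a 95% confidence interval of 1.10 to 1.27. With the correction for length and GC content described below it was at 0.094 and did not pass (FDR 0.090).

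Stat5b (ENSMUSG00000020919, chromosome 11 from 100780731 to 100850724) encodes one of the STAT5 proteins, and its CTRL libraries were the most even of all, at 104, 104 and 105 normalized CPM. The CHD4-APR libraries were at 123, 122 and 119 normalized CPM. The groups were thus far apart relative to their spread. Stat5b rose by a log2 fold change of 0.22 (SE 0.042, edgeR FDR 0.00077), or 1.16-fold with a 95% confidence interval of 1.09 to 1.24.

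Stat5a (ENSMUSG00000004043, chromosome 11 from 100859351 to 100885169) lies beside Stat5b and encodes the other STAT5 protein. Its normalized CPM were 21.5, 20.8 and 22.2 in CTRL and 24.2, 23.9 and 22.7 in CHD4-APR. Every CHD4-APR library was higher than every CTRL library, with a narrow gap between CHD4-APR replicate 3 and CTRL replicate 3. Stat5a had a log2 fold change of 0.13 (SE 0.063) and did not pass the test (FDR 0.11). The transcripts of these relatives share 608 stretches of 50 bases, which is 8.21% of those in Stat5a and 11% of those in Stat5b, so reads from the shared stretches are uncertain. Stat5a also shares 72 exonic bases (1.01%) with Stat3 on the opposite strand.

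Cish (ENSMUSG00000032578, chromosome 9 from 107296026 to 107302784) encodes a SOCS-family protein that binds the activated erythropoietin receptor. It had 485, 466 and 480 normalized CPM in CTRL and 479, 477 and 500 normalized CPM in CHD4-APR. The groups overlapped, although CHD4-APR replicate 3 was the highest of all. The log2 fold change was 0.025 (SE 0.041, FDR 0.67), and its interval from -0.062 to 0.11 left out a change of more than 1.08-fold in either direction. As counted, Cish, whose start site carries the 2 STAT5 motifs shown above, was thus the member with the smallest measured difference. With the length and GC correction described below, the smallest was that of Socs1 (0.0042 against 0.018 for Cish).

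Socs1 (ENSMUSG00000038037, chromosome 16 from 10782240 to 10785536) encodes an inhibitor that binds JAK kinases directly. It had 4.58, 4.25 and 4.42 normalized CPM in CTRL and 3.62, 4.02 and 4.36 in CHD4-APR. The groups overlapped through CHD4-APR replicate 3 alone. Its log2 fold change was -0.14 (SE 0.12, FDR 0.38), with an interval of -0.39 to 0.11.

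Socs2 (ENSMUSG00000020027, chromosome 10 from 95385362 to 95417180) encodes an inhibitor best known from growth hormone signalling. It had 21.8, 22.7 and 21.3 normalized CPM in CTRL and 24.8, 22.3 and 21.5 in CHD4-APR. CHD4-APR replicate 1 was high and the other CHD4-APR libraries lay among the CTRL libraries. The log2 fold change was 0.058 (SE 0.069, FDR 0.55), and without CHD4-APR replicate 1 it was -0.0010.

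Socs3 (ENSMUSG00000053113, chromosome 11 from 117966079 to 117970047) encodes an inhibitor that binds both receptors and JAK kinases. It had 19.6, 19.9 and 20.6 normalized CPM in CTRL and 16.5, 18.7 and 18.4 in CHD4-APR. Every CHD4-APR library was lower than every CTRL library, replicate 1 the most. Socs3 had a log2 fold change of -0.16 (SE 0.070, interval -0.31 to -0.016) and did not pass the test (FDR 0.074).

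Pim1 (ENSMUSG00000024014, chromosome 17 from 29490753 to 29496112) encodes a serine and threonine kinase that promotes survival. It had 704, 688 and 692 normalized CPM in CTRL and 722, 706 and 718 in CHD4-APR. The CHD4-APR libraries were all higher, though CHD4-APR replicate 2 exceeded CTRL replicate 1 only slightly. The log2 fold change was 0.042 (SE 0.040, FDR 0.44), and its interval from -0.042 to 0.13 reached at most 1.09-fold. The library kit does not mark the strand of a read, and Pim1 shares 488 exonic bases (14.5%) with Gm26885 on the opposite strand, as Cish does with Gm17040 (4.07%) and Gm17041 (7.46%), so reads from these stretches cannot be assigned to a strand.

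Ratios of levels per kilobase within a library show how the parts of the chain stood to each other. They were chosen after the values were seen and are given as a description, with no test. Jak2 stood to Epor at 0.170, 0.216 and 0.195 in CTRL and at 0.231, 0.252 and 0.261 in CHD4-APR. The ratio was higher in every CHD4-APR library, at 0.248 ± 0.0157 against 0.194 ± 0.0228 (SD, n = 3 each).

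Stat5b exceeded Stat5a by 6.26 ± 0.181 times in CTRL and 6.63 ± 0.0910 times in CHD4-APR (SD, n = 3 each). Cish stood to Epor at 0.712 ± 0.0340 in CTRL and 0.788 ± 0.0471 in CHD4-APR, and Pim1 to Epor at 1.98 ± 0.110 and 2.21 ± 0.0816 (SD, n = 3 each). In the latter ratios the denominator Epor had a larger fold change than the numerator. The ratios are of values as counted. With the length and GC correction described next, the log2 fold changes were 0.046 for Epor, 0.018 for Cish and 0.094 for Jak2, so that the difference of Cish from Epor turned in sign and that of Jak2 from Epor shrank. Pim1, at 0.17, still exceeded Epor, and Stat5b, at 0.23, still exceeded Stat5a, at 0.16.

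The fold changes of all genes moved with the base composition of their transcripts, which bears on the reading of the 10 genes. In 20 groups of genes by GC content, the median log2 fold change was 0.25 in the group with a median GC content of 37.9% and -0.17 in the group with 61.3%. Jak2 had a GC content of 44.3%, where the median of all genes was 0.12. Stat5b had 52.7%, where the median of all genes was -0.09. Epor, Socs1 and Socs3, with 58.7% to 59.6%, lay close to the median of their group.

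**Figure D3:**
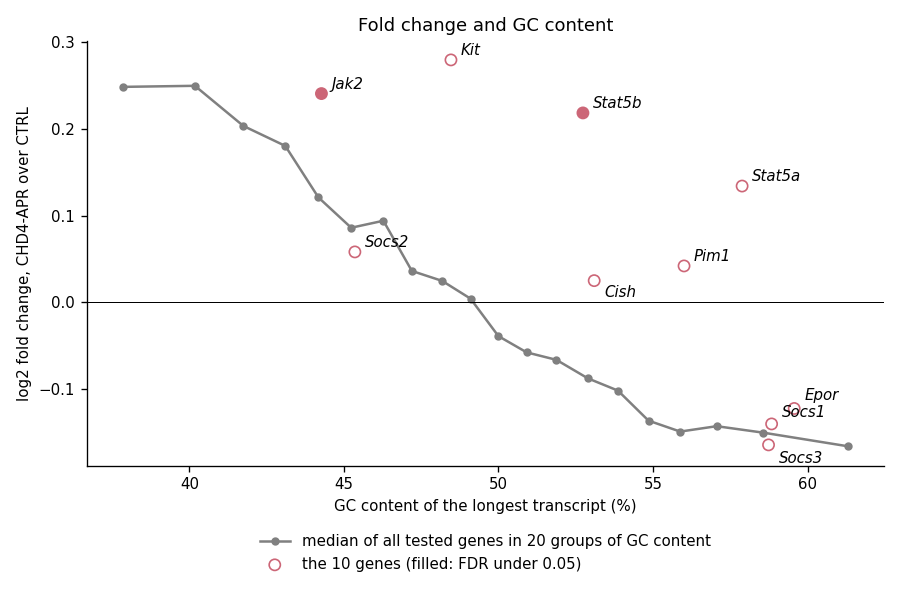
Log2 fold change, CHD4-APR over CTRL, against the GC content of the longest transcript, for the 10 genes (red, filled where the FDR was under 0.05) and as the median of all tested genes in 20 groups of GC content (grey line). Stat5b lies at 0.22 above a grey line at -0.09, whereas Epor, Socs1 and Socs3 lie close to the line.

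When the trend with exonic length and GC content was removed from each library, Stat5b kept its difference, with a log2 fold change of 0.23 and an edgeR FDR of 0.00022. Jak2 was at 0.094 and no longer passed the test (FDR 0.090). Stat5a passed narrowly at 0.16 (FDR 0.0497) and Pim1 at 0.17 (FDR 0.0017). Epor was at 0.046 (FDR 0.42), with the sign reversed, and Socs3 at -0.020 (FDR 0.87).

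Socs2 was at -0.18 after the correction (FDR 0.0502), on the other side of 0 from its uncorrected value. Kit was at 0.13 (FDR 0.56), Socs1 at 0.0042 (FDR 0.98) and Cish at 0.018 (FDR 0.77). Thus 3 of the 10 genes (30%), all higher, passed after the correction, against 27.9% of all genes (11.7% higher and 16.2% lower), and Stat5b was the gene that passed in both analyses. Whether the trend arose in the cells or in the libraries was not tested.

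**Figure D4:**
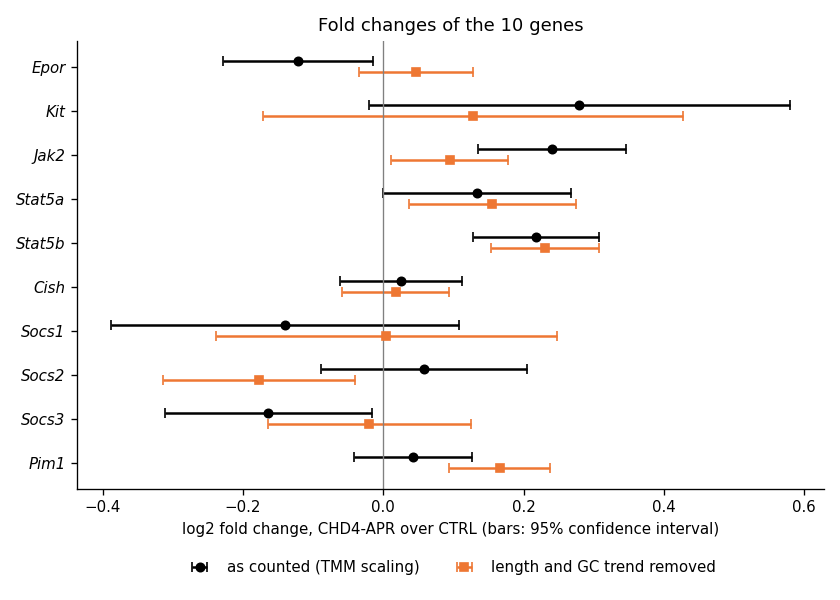
Log2 fold change of the 10 genes, CHD4-APR over CTRL, with the 95% confidence interval, as counted (black) and with the trend in length and GC content removed (orange). The Stat5b values nearly coincide (0.22 and 0.23), Jak2 moves from 0.24 to 0.094, and Epor, Socs1 and Socs2 change sign.

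Around the 10 genes, 106 other genes of the pathway were listed by role, of which 89 were tested. With the CHD4-APR peptide 38 were higher and 10 were lower, so that 48 (53.9%) passed against 38.3% of all genes, with a median log2 fold change of 0.095 against -0.01 for all genes. After the length and GC correction 22 were higher and 9 lower (34.8% against 27.9% of all genes, of which 11.7% were higher and 16.2% lower), with a median of 0.027 against -0.02, and 23 genes passed in the same direction in both analyses.

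**Figure D5:**
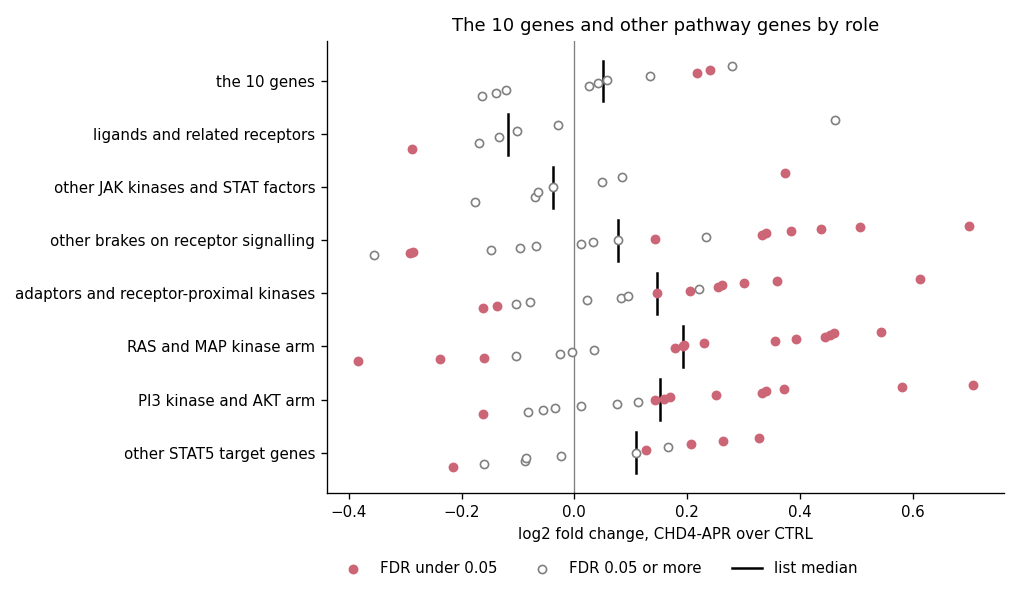
Log2 fold change, CHD4-APR over CTRL, of the 10 genes and of the other tested pathway genes by role. Filled red points have an FDR under 0.05, open points do not, and black lines are medians. Filled points lie mostly right of 0 among the adaptors and the RAS, MAP kinase, PI3 kinase and AKT genes, while the ligands and related receptors have a single filled point, left of 0.

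Of the 13 genes for ligands and related receptors, 6 were tested and only Csf2rb2 passed (16.7% against 38.3% of all genes). Csf2rb2, a mouse relative of the shared beta chain of the IL-3 receptor, was at 699 ± 107 normalized CPM in CTRL and 573 ± 76.1 in CHD4-APR (SD, n = 3 each), with overlapping libraries and a log2 fold change of -0.29 (edgeR FDR 0.022). It closely resembles Csf2rb, so its counts are uncertain. It did not pass in DESeq2 (FDR 0.18) or after the length and GC correction (-0.24, FDR 0.066). In edgeR with a replicate block it passed, both without that correction (FDR 6.2e-06) and with it (FDR 4.9e-06). Its FDR rose to between 0.061 and 0.12 when any of CTRL replicates 2 and 3 or CHD4-APR replicates 1 and 3 was left out. Epo and Kitl, the genes for the ligands themselves, had 0 counts in all 6 libraries, where 3 counts, the limit that a count of 0 allows, would be 0.0607 to 0.0724 normalized CPM. Flt3 and Pdgfra were at 0 as well, Csf2ra had 1 count in 1 library, and Pdgfrb had at most 6 counts.

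Of 8 other genes for JAK kinases and STAT factors, 7 were tested and 1 passed (14.3% against 38.3% of all genes). This was Jak1, with 123 ± 8.47 normalized CPM in CTRL and 159 ± 6.02 in CHD4-APR. The difference was 0.37 in log2 units (edgeR FDR 4.7e-05). JAK1 serves the interferon and interleukin receptors. It stayed higher after the length and GC correction, at 0.24. Jak3, Tyk2, Stat2, Stat3 and Stat6 had log2 fold changes between -0.070 and 0.085 and did not pass in either analysis.

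Among 18 other brakes on receptor signalling, 17 were tested, 7 were higher and 2 were lower (52.9% against 38.3% of all genes). With the length and GC correction 5 were higher and 0 lower. This was 29.4% against 27.9% of all genes, of which 11.7% were higher and 16.2% lower. Socs4 rose most, from 28.8 ± 2.86 to 46.9 ± 2.33 normalized CPM, or by 0.70 on the log2 scale (edgeR FDR 2.2e-06). Socs5 rose by 0.51 (FDR 0.0024), from 3.88 ± 0.443 to 5.54 ± 0.171 normalized CPM. Named after their values were seen, Socs6 rose by 0.44 (FDR 0.0035) and Socs7 by 0.14 (FDR 0.025). The 4 genes Socs4 to Socs7, relatives of the inhibitors described above that are tied more to growth factor receptors than to STAT feedback, were thus higher without overlap between the groups, which 25.0% of all genes were. After the length and GC correction Socs4 (0.37), Socs5 (0.40) and Socs7 (0.12) still passed, and Socs6 was at 0.048 (FDR 0.75). Socs7 did not pass without CTRL replicate 1, CHD4-APR replicate 1 or CHD4-APR replicate 2 (FDR 0.057 to 0.11).

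The other brakes that rose were Cbl (0.38), Pias1 (0.33) and Cul5 (0.34), named after their values were seen, which encode a ubiquitin ligase of activated receptors, an inhibitor of STAT factors and a scaffold that SOCS proteins use. After the correction Cbl still passed at 0.14 (FDR 0.022), and Pias1 at 0.085 (FDR 0.20) and Cul5 at -0.015 (FDR 0.84) did not. Sh2b3, which encodes the JAK2 inhibitor LNK and was named after its values were seen, was at 0.033 (FDR 0.62) as counted and passed as higher after the correction, at 0.12 (FDR 0.031), so that 5 brakes were then higher. Ptpn6, the phosphatase that turns off the erythropoietin receptor, fell by 0.29 on the log2 scale (edgeR FDR 0.011) from 11.8 ± 0.423 to 9.67 ± 0.691 normalized CPM, and the FDR was 0.055 without CHD4-APR replicate 3. Dok1, an adaptor that restrains RAS, fell by 0.29 (FDR 0.00029), from 77.5 ± 1.78 to 63.5 ± 3.01 normalized CPM. Neither Ptpn6 nor Dok1 passed after the correction, at -0.16 and -0.12. With a replicate block added to the correction, Dok1 passed (edgeR FDR 0.031) and Ptpn6 did not (FDR 0.12). Ptprc, the gene for the phosphatase CD45, had 0 counts in every library.

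Of 18 adaptors and receptor-proximal kinases, 15 were tested, 7 were higher and 2 were lower (60% against 38.3% of all genes). With the length and GC correction 5 were higher and 1 lower (40% against 27.9% of all genes). Crkl and Crk, which link phosphorylated receptors to small GTPases, rose by 0.61 (edgeR FDR 9.2e-06) and 0.36 (FDR 8.3e-05) on the log2 scale. Crkl went from 29.6 ± 3.36 to 45.3 ± 1.72 normalized CPM and Crk from 46.5 ± 1.75 to 59.7 ± 2.90, and both passed after the correction, at 0.56 and 0.21. Sh2b1, an adaptor that enhances JAK2, fell by 0.16 (FDR 0.028), and Grb2, the link from receptors to the RAS exchange factor SOS, fell by 0.14 (FDR 0.018). Neither passed after the correction, at -0.050 and -0.061. Without CTRL replicate 3, CHD4-APR replicate 2 or CHD4-APR replicate 3 neither passed, with an FDR up to 0.13, and Sh2b1 did not pass without CTRL replicate 1 either (FDR 0.096). Lyn, a SRC-family kinase known from erythropoietin signalling, had at most 5 counts per library.

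In the RAS and MAP kinase arm, 17 of 20 genes were tested, 10 were higher and 3 were lower (76.5% against 38.3% of all genes). Rasa1 and Nf1 encode proteins that switch RAS off, and rose by 0.54 (edgeR FDR 1.0e-05) and 0.46 (FDR 3.1e-05). Rasa1 went from 20.7 ± 1.00 to 30.1 ± 1.32 normalized CPM and Nf1 from 38.4 ± 3.38 to 52.9 ± 1.00. Hras fell by 0.38 (FDR 3.6e-05), from 45.5 ± 1.27 to 34.9 ± 0.335 normalized CPM, and Map2k2, the gene for the kinase MEK2, fell by 0.24 (FDR 0.0021). All 4 kept their direction and passed after the correction, at 0.28, 0.15, -0.28 and -0.18. After it the arm had 3 genes higher and 4 lower (17.6% and 23.5% of those tested), against 11.7% and 16.2% of all genes.

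In the PI3 kinase and AKT arm, 16 of 17 genes were tested, 9 were higher and 1 was lower (62.5% against 38.3% of all genes). With the length and GC correction 6 were higher and 3 lower (56.2% against 27.9% of all genes). Pdpk1, the kinase that activates AKT, rose by 0.71 (edgeR FDR 3.9e-06), from 107 ± 15.7 to 175 ± 5.44 normalized CPM. Rictor, a subunit of the second mTOR complex, rose by 0.58 (FDR 4.7e-06), from 39.5 ± 3.69 to 59.1 ± 1.99 normalized CPM, and both passed after the correction, at 0.46 and 0.22. Pik3r2, a regulatory subunit of PI3 kinase, fell by 0.16 with an FDR of 0.043, which was 0.081 to 0.13 when any library other than CTRL replicate 2 was left out. It did not pass in DESeq2 (FDR 0.051) or after the correction (-0.066, FDR 0.37).

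Of 12 other genes known as STAT5 targets, 11 were tested, 4 were higher and 1 was lower (45.5% against 38.3% of all genes), with a median log2 fold change of 0.11. After the length and GC correction 2 passed, both higher (18.2% against 27.9% of all genes), with a median of 0.055. Myc rose by 0.33 with an FDR of 0.049, from 3.76 ± 0.275 to 4.73 ± 0.590 normalized CPM, and by 0.43 (FDR 0.015) after the correction. It did not pass in DESeq2 (FDR 0.069), in limma-voom (FDR 0.065) or with upper quartile scaling (FDR 0.058). Its FDR was 0.089 to 0.20 when replicate 1 or 3 of CTRL, or replicate 2 or 3 of CHD4-APR, was left out. Tfrc, the transferrin receptor, rose by 0.26 (FDR 0.0039), from 895 ± 102 to 1075 ± 46.4 normalized CPM, and was at -0.023 (FDR 0.77) after the correction. Id1 fell by 0.21 (FDR 0.016), was at -0.042 after the correction, and had an FDR of 0.057 to 0.078 without CTRL replicate 1, CHD4-APR replicate 1 or CHD4-APR replicate 2.

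The other STAT5 targets that rose were Mcl1 (0.13) and Ccnd2 (0.21), named after their values were seen. After the correction Mcl1 still passed at 0.13 (FDR 0.010), and Ccnd2 was at 0.014 (FDR 0.82). As counted, Mcl1 had an FDR of 0.063 to 0.11 when CTRL replicate 3 or replicate 1 or 3 of CHD4-APR was left out. Bcl2l1, which encodes the survival protein BCL-XL of erythroid cells, was at -0.09 (FDR 0.17), Osm at -0.02 (FDR 0.77) and Erfe, the gene for erythroferrone, at -0.09 (FDR 0.28).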

How the data were processed

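Poly(A) RNA of 3 CTRL and 3 CHD4-APR libraries was measured. The authors trimmed reads with Cutadapt, aligned them with STAR 2.7.10a to GRCm38 (Ensembl release 86) and made the deposited counts per gene with featureCounts. Its settings for strand and for reads matching several genes are not given in the sources used here. Another 2 columns match no sample and were not used. GENCODE M21 named 48349 of 48709 identifiers and gave exonic lengths, counted over all annotated exons of a gene. GC content was that of the longest transcript.

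Genes passed edgeR's filterByExpr (edgeR 4.0.16, R 4.3.3), TMM gave the scaling, and the quasi-likelihood F-test compared the groups, with no replicate block. Standard errors came from the fold change and F. Alternatives were DESeq2 1.42.0, limma-voom 3.58.1, other scalings, filters and thresholds, removal of hemoglobin genes, a replicate block, leaving out each library, and offsets from a smooth trend of each library's log2 CPM on length and GC content (mgcv 1.9.3). The procedures were tested on simulated counts. Replicates of every pair differed by more than sampling noise (chi-square per gene 4.62 to 15.5). The members and gene lists were chosen with earlier results of these data known. Named were the 10 genes and, per list, the 2 largest changes in each direction with an FDR under 0.05, unless stated otherwise. Values of some genes of the lists are not reported here.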

Additional observations from a re-analysis of the deposited data

How the results depend on the processing

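The number of all genes called stayed within 1.5 times of 4871 under each of 17 alternatives, and was 3703 to 4928 when a library was left out. The number among the 10 genes was 2, and became 4 with upper quartile scaling (Epor, Jak2, Socs3, Stat5b) and 4 with the replicate block and the length and GC correction together (Pim1, Socs2, Stat5a, Stat5b). It was 2 to 3 when a library was left out. Stat5b passed in all 16 alternatives that refitted it (FDR at most 0.0069) and Jak2 in 14. Jak2 was not called with the length and GC correction, or with it and the block (FDR 0.051). Of the other pathway genes, 48 were called, 37 to 47 when a library was left out, and 31 with the length and GC correction. The sign turned with that correction, and with it and the block, for Epor (0.046 in both), Socs1 (0.0042 and 0.0012), Socs2 (-0.18 in both), Cul5 (-0.015 in both) and Tfrc (-0.023 and -0.021), and for Socs2 when a library was left out (-0.0010 to 0.11). The cause was not tested.

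Same-numbered libraries of the groups deviated from their group means with correlations across genes of 0.070, 0.055 and -0.035, so the numbers are not taken to pair libraries. With a replicate block 5214 genes, 3 of the 10 (Epor, with a log2 fold change of -0.12 and an FDR of 0.039, beside Jak2 and Stat5b) and 49 of the other pathway genes were called. Depth limits Kit most, with 116 to 161 counts per library.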
